A study of Mus musculus with 10 samples.

Results

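The 34 genes described here encode the enzymes of glycolysis and of the pentose phosphate pathway, with the glucose carriers, the enzymes that set the fate of pyruvate and 3 genes of the hypoxia response. They were taken by symbol from the deposited RNA-seq count table of mouse B cell preparations, in which all 34 were found among 46959 genes. The 10 libraries comprised 6 splenic cultures and 4 femoral pools. Splenocytes depleted of CD43-positive cells were cultured for 2 days with 10% FCS and 5 µg/ml of the bacterial product LPS, which activates B cells. Of these cultures, 2 were wild-type (WT, BLACK-6) with LPS, 2 were WT with LPS plus SAHA at 200 ng/ml (vorinostat, an inhibitor of histone deacetylases), and 2 were KOKI with LPS. While the protocol gives 2 days, the library names of the SAHA cultures contain D3. A longer culture with SAHA, if there was one, cannot be told apart from the drug. The labels do not spell out KOKI. For the KOKI cultures the title and the design text name LPS, while the treatment label names LPS with SAHA, so these cultures were compared with both WT groups. Each femoral library pooled 3 mice and was extracted without culture. The 2 control pools came from mice deficient in RAG2 and gamma C, 1 KOKI pool from mice with the same deficiencies, and 1 KOKI pool from mice deficient in RAG2 alone.

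Glycolysis splits glucose into pyruvate and yields ATP and NADH. Its upper steps phosphorylate and cleave the sugar, and its lower steps recover the energy. The pentose phosphate pathway branches off at glucose 6-phosphate and supplies NADPH and the ribose of nucleotides. B cells take up more glucose when they are activated. Hypoxia-inducible factor 1 alpha, encoded by Hif1a, is a transcription factor that is known to raise many glycolytic genes when oxygen is low, and Slc2a1, Pdk1, Bnip3 and Egln3 are among its textbook targets.

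Libraries held between 18614742 and 29314068 counts, of which the 34 genes took 0.279% to 0.865%. The splenic libraries carried B cell markers, with summed levels of 8 mature B cell genes between 2631 and 3605 CPM (deposited counts scaled to a common library size, with TMM normalisation). The pools labelled femoral B cells did not: the same genes summed to between 11.6 and 14.2 CPM, Ms4a1 was at 0 counts in 3 of the 4 pools, and neutrophil markers summed to between 12057 and 20619 CPM. KOKI replicate 2 stood apart from the other 9 libraries in the sex-linked genes, with 8499 counts of Xist against at most 9 elsewhere and 20 counts of Ddx3y against at least 1853 elsewhere. It is therefore left out in turn below, and 4 of the 34 genes are X-linked (Pgk1, Pdk3, Pdha1 and G6pdx).

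Bnip3 encodes a mitochondrial protein that promotes mitophagy and Egln3 a prolyl hydroxylase that marks HIF alpha proteins for degradation. Pdk1 encodes a kinase that switches off pyruvate dehydrogenase. The promoters of these 3 genes, which were higher in KOKI cultures, are shown as examples. Each is the stretch of 250 bases before the RefSeq gene start (GRCm38.p6), written 5′ to 3′ on the gene's strand. Capitals mark ACGTG or GCGTG, the core letters of the hypoxia response element, read on either strand.
Bnip3 (chr7:138909507-138909756, minus strand): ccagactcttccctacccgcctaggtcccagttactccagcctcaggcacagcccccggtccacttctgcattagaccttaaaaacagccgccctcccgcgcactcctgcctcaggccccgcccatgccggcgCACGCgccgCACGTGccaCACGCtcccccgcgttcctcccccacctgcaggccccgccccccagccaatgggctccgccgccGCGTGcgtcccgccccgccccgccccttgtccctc
Egln3 (chr12:54203875-54204124, minus strand): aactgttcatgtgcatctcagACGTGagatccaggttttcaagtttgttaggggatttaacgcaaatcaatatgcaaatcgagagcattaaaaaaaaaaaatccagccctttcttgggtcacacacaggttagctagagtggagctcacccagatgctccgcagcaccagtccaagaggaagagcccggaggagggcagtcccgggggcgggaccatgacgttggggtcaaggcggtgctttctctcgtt
Pdk1 (chr2:71872974-71873223, plus strand): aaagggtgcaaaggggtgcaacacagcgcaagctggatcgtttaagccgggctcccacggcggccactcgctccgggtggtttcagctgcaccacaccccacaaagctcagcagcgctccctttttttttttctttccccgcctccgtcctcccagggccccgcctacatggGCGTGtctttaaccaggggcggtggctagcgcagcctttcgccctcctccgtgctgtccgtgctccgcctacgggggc

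The Bnip3 promoter held 5 matches, which start between 35 and 117 bases before the gene start, and 2 of them overlap within the palindrome CACGTG. Egln3 and Pdk1 held 1 match each, 229 and 78 bases before the start. The promoter of Slc2a1, also higher in KOKI cultures and not shown, held 2 matches. Promoters were found for 33 of the 34 genes (not for Slc2a3), and 27 of the 33 (81.8%) held the core letters. The share was 87.5% (7 of 8) for the genes that were higher in KOKI than in WT LPS cultures and 80% (20 of 25) for the others. Of all 32851 RefSeq promoters of this length 38.6% held the letters, and of the 12077 promoters of genes tested in the splenic cultures 55.3% did. The median GC content was 59.6% for the 33 promoters and 59.6% for those of the tested genes. A match is a description of the letters and shows no binding.

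In WT cultures with LPS the most abundant transcripts per length were those of the lower steps. Pkm, which encodes pyruvate kinase, had 282 ± 34.7 CPM per kb of exon (SD, n = 2), Gapdh had 235 ± 7.46 and Pgk1, phosphoglycerate kinase, had 225 ± 20.4. Gapdh and Pgk1 differed by less than the SD of Pgk1. At the other end were Hk3 with 0.130 ± 0.0124 CPM per kb, Egln3 with 0.326 ± 0.212 and Eno2, the neuronal enolase, with 0.328 ± 0.118. Egln3 and Eno2 differed by less than their SD.

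**Figure D1:**
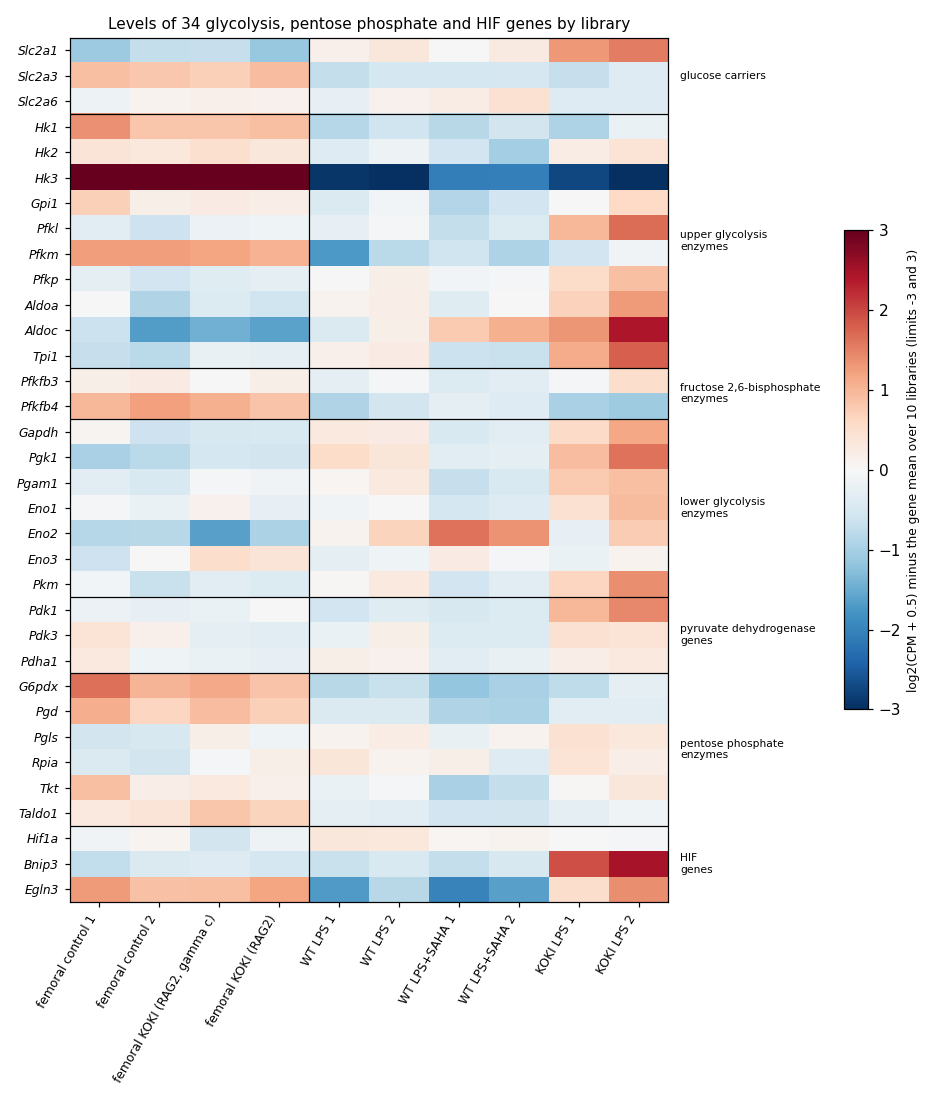
Level of each gene (rows, grouped by role) in each of the 10 libraries (columns), as log2(CPM + 0.5) minus the gene's mean over the 10 libraries, with colours limited to between -3 and 3. Bnip3, Pdk1 and Slc2a1 are high in both KOKI cultures, and Hk1, Hk3, Pfkm, Pfkfb4 and G6pdx are high in all 4 femoral pools.

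KOKI cultures with LPS held more RNA of hypoxia genes and of several glycolytic steps than WT cultures with LPS. Of the 34 genes 8 rose and 0 fell (edgeR quasi-likelihood test, Benjamini-Hochberg adjusted p under 0.05), where 4.08% of the 15342 tested genes passed, 2.25% as higher and 1.83% as lower. Over the 34 genes the log2 fold change had a median of 0.53, and over all tested genes of -0.02. Both KOKI libraries lay above both WT LPS libraries for 23 of the 34 genes, against 21.4% of all genes, and below both for 3 (Hif1a, Pfkfb4 and Slc2a6), against 25.7%.

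Bnip3 (chromosome 7, 138890836 to 138909519, mm10) had 9.54 and 11.1 CPM in WT LPS, 9.18 and 10.9 CPM in WT LPS+SAHA, and 60.4 and 88.0 CPM in KOKI cultures. It was the gene with the highest fold change of the 34 in this comparison, 7.28-fold up (log2 2.86 ± 0.22 SE, adjusted p = 0.000547). Egln3 (chromosome 12, 54178981 to 54203860) had 0.468 and 1.26 CPM in WT LPS, 0.287 and 0.513 CPM in WT LPS+SAHA, and 4.01 and 7.77 CPM in KOKI cultures. All 4 WT libraries lay below both KOKI libraries. Its rise, by 2.76 ± 0.62 on the log2 scale (adjusted p = 0.0492), rested on 11 and 34 counts in WT LPS and 97 and 136 counts in KOKI. Hif1a itself did not pass the test, with 108 and 106 CPM in WT LPS and 84.4 and 81.7 CPM in KOKI cultures (log2 -0.34 ± 0.12, adjusted p = 0.176).

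Among the glucose carriers, Slc2a1 (GLUT1, chromosome 4, 119108711 to 119137983) rose 2.33-fold. Its level was 18.5 and 21.0 CPM in WT LPS, 16.5 and 20.2 CPM in WT LPS+SAHA, and 41.5 and 49.2 CPM in KOKI cultures (log2 1.22 ± 0.17, adjusted p = 0.00766). The KOKI libraries were the highest of all 10. Slc2a3 (GLUT3) had 22.4 and 25.4 CPM in WT LPS against 22.7 and 28.0 CPM in KOKI, groups that overlap. Slc2a6, a carrier found on lysosomes, had 19.3 and 25.1 CPM against 17.5 and 17.4 CPM, without passing the test (adjusted p = 0.4). Slc2a1 thus took 34.5% to 36.7% of the summed CPM per kb of the 3 carriers in WT LPS and 57.9% to 60.2% in KOKI cultures.

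Of the 10 upper glycolysis genes 3 rose and 0 fell, and all 10 fold changes were positive (median log2 0.77). Pfkl, the liver-type subunit of phosphofructokinase that commits sugar to glycolysis, had 41.3 and 48.1 CPM in WT LPS and 97.9 and 157 CPM in KOKI (log2 1.53 ± 0.24, adjusted p = 0.0117). Tpi1, triosephosphate isomerase, had 224 and 240 CPM in WT LPS and 434 and 704 CPM in KOKI (log2 1.32 ± 0.23, adjusted p = 0.0207). Aldoc, the brain-type aldolase, had 3.87 and 6.18 CPM in WT LPS and 14.2 and 31.4 CPM in KOKI (log2 2.19 ± 0.40, adjusted p = 0.0228). For these 3 genes the groups did not overlap, and the 2 KOKI libraries differed from each other by more than the 2 WT LPS libraries did.

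The other 7 upper genes did not pass. Aldoa, the main aldolase of these cells, had 360 and 388 CPM in WT LPS and 540 and 817 CPM in KOKI (adjusted p = 0.0891). Pfkp, the platelet-type subunit, had 111 and 124 CPM against 161 and 207 CPM (adjusted p = 0.0678), and Hk2, the inducible hexokinase, had 55.5 and 64.4 CPM against 84.0 and 96.4 CPM (adjusted p = 0.12). Gpi1, glucose-6-phosphate isomerase, gave an adjusted p of 0.227. Hk1, Pfkm and Hk3 gave log2 fold changes of 0.22, 0.95 and 0.03. Pfkfb3 and Pfkfb4, which make and remove the activator of phosphofructokinase, fructose 2,6-bisphosphate, gave log2 0.45 and -0.30 and did not pass.

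In lower glycolysis 1 of 7 genes rose: Pgam1, phosphoglycerate mutase, with 106 and 124 CPM in WT LPS and 174 and 191 CPM in KOKI (log2 0.69 ± 0.15, adjusted p = 0.0499). Pkm had 668 and 796 CPM in WT LPS and 1015 and 1695 CPM in KOKI, Pgk1 had 537 and 472 against 697 and 1125, and Gapdh had 993 and 949 against 1191 and 1799. In each the groups did not overlap and the test was not passed (adjusted p 0.122, 0.0969 and 0.194). Eno1, the ubiquitous enolase, gave log2 0.80 ± 0.19 (adjusted p = 0.066), and Eno2 and Eno3 gave log2 -0.09 and 0.19. The 7 genes summed to 2516 and 2570 CPM in WT LPS and to 3386 and 5244 CPM in KOKI.

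At the exit of pyruvate to the mitochondrion, Pdk1 (chromosome 2, 71873224 to 71903858) had 27.5 and 32.2 CPM in WT LPS, 29.7 and 31.3 CPM in WT LPS+SAHA, and 83.6 and 114 CPM in KOKI. Its rise was 3.35-fold (log2 1.75 ± 0.18, adjusted p = 0.00184). Pdk3, a second kinase of the same enzyme, had 24.0 and 31.2 CPM against 37.6 and 36.8 CPM (adjusted p = 0.199). Pdha1, the catalytic subunit of pyruvate dehydrogenase that these kinases phosphorylate, had 121 and 117 CPM against 123 and 132 CPM (log2 0.13 ± 0.12).

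None of the 6 pentose phosphate enzymes passed the test against WT LPS (0 of 6, 2.25% of all genes rising), and their median log2 fold change was 0.19. G6pdx, glucose-6-phosphate dehydrogenase and the entry enzyme, had 39.3 and 43.8 CPM in WT LPS and 41.2 and 57.3 CPM in KOKI. Transketolase, Tkt, had 303 and 338 CPM against 354 and 441 CPM (log2 0.33 ± 0.18, adjusted p = 0.404). Pgd, Pgls, Rpia and Taldo1 gave log2 fold changes between 0.10 and 0.26.

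KOKI replicate 2 was above replicate 1 for 27 of the 34 genes, with a median log2 ratio of 0.40 over the 34 and of -0.00 over all tested genes. Without it, 4 of the 34 genes (11.8%) passed against WT LPS, where 1.54% of all tested genes did: Slc2a1 (log2 1.08, adjusted p = 0.0474), Pfkl (1.14, 0.0334), Pdk1 (1.50, 0.00635) and Bnip3 (2.56, 0.00097). Aldoc, Tpi1, Pgam1 and Egln3 then gave adjusted p of 0.0785, 0.0719, 0.251 and 0.274. Without WT LPS replicate 1, 3 genes passed (Slc2a1, Pdk1 and Bnip3), against 1.60% of all genes, and Pfkl gave 0.0738, Aldoc 0.118, Tpi1 0.114, Pgam1 0.244 and Egln3 0.197. Without WT LPS replicate 2, 5 passed, against 1.84% of all genes, with Tpi1 at 0.0754, Pgam1 at 0.084 and Egln3 at 0.0606. Without KOKI replicate 1, Pgam1 gave 0.129 and Egln3 0.0606.

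**Figure D2:**
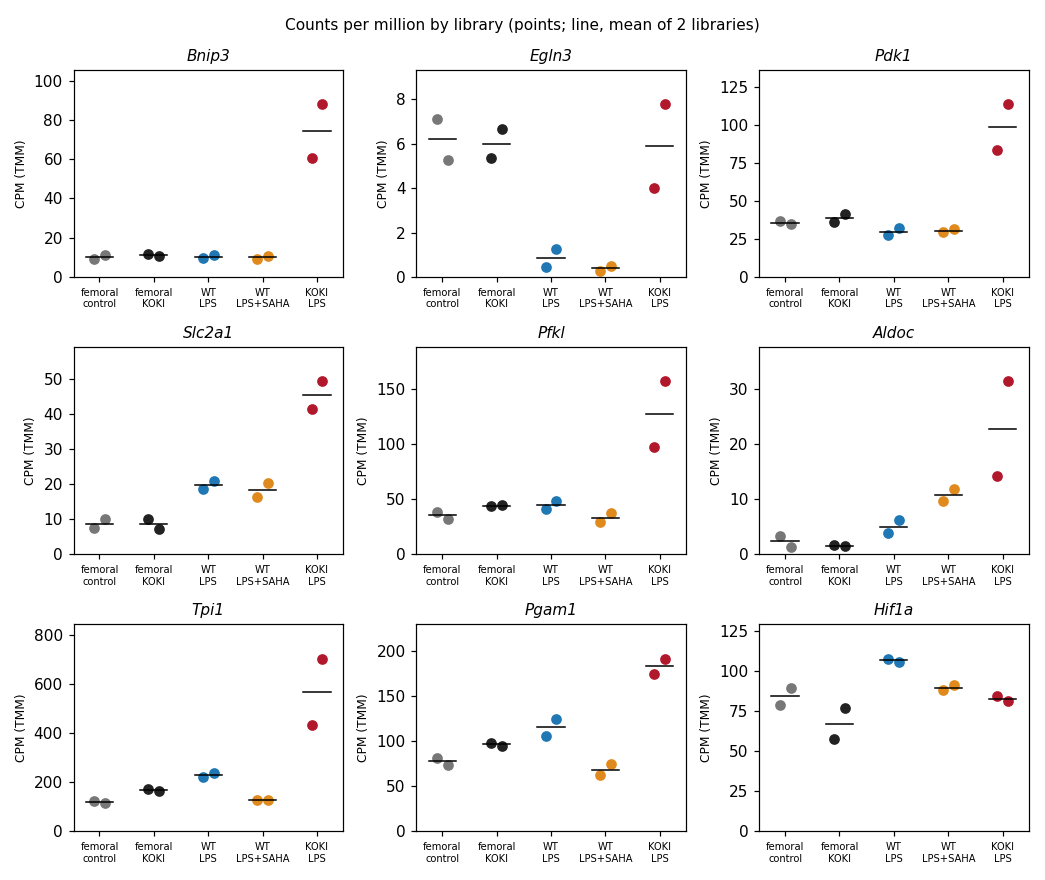
CPM (linear axis from 0) by group for the 8 genes that were higher in KOKI than in WT LPS cultures and for Hif1a, with 1 point per library and a line at the mean of 2 libraries. For Bnip3, Pdk1 and Slc2a1 both KOKI cultures lie above the other 8 libraries, while the femoral KOKI pools lie near the femoral controls.

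Part of a list of other hypoxia response genes was higher in KOKI than in WT LPS cultures. Of its 21 tested genes 8 rose, 0 fell and 13 did not pass. Of the 21 fold changes 5 were negative, and the median log2 fold change was 1.04. Of all tested genes 2.25% rose and 1.83% fell in this comparison, and the median was -0.02. Ankrd37, a HIF target of unsettled function, rose by 3.23 ± 0.26 on the log2 scale (adjusted p = 0.000726), from 3.96 and 6.81 CPM to 45.5 and 55.0 CPM. Vegfa, a growth factor for vessels, rose by 2.62 ± 0.31 (adjusted p = 0.00355). The others were P4ha1, a collagen prolyl hydroxylase (log2 1.98), Bnip3l, a relative of Bnip3 (1.77), Ddit4, an inhibitor of mTORC1 (1.43), Egln1, a second HIF prolyl hydroxylase (1.09), Kdm3a, a histone demethylase (0.85), and Ero1l, an oxidase of the endoplasmic reticulum (0.81). Of 10 other tested glycolysis genes 1 rose and 1 fell, of 9 other pentose phosphate genes 0 passed, and of 11 other genes of pyruvate entry 0 passed. The gene that fell was Gpd2, the mitochondrial glycerol phosphate dehydrogenase (log2 -0.75 ± 0.15, adjusted p = 0.03).

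The other glycolysis gene that rose was Eno1b, an intronless copy of Eno1, with 25 and 40 counts in WT LPS, 25 and 24 in WT LPS+SAHA, and 1690 and 1949 in KOKI (log2 6.15 ± 0.31, adjusted p = 9.31e-05). The femoral control pools held 23 and 57 counts of it and the femoral KOKI pools 111 and 174. How reads shared with Eno1 were counted is not given in the sources used here, so the value of Eno1b is uncertain. Among glucose regulators and lactate genes the lactate exporter Slc16a3 rose, from 1 and 9 counts to 568 and 800 counts, and Ldha, which makes lactate, gave log2 0.89 (adjusted p = 0.073).

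Markers of other cell states moved between these groups. Plasmablast markers summed to 543 to 554 CPM in WT LPS and to 1095 to 1239 CPM in KOKI, and 4 of 5 passed as higher. Markers of dividing cells summed to 2347 to 2443 CPM in WT LPS and to 3295 to 3349 CPM in KOKI, and 2 of 8 passed as higher. T cell markers summed to between 11.1 and 15.4 CPM in these 4 libraries and macrophage and monocyte markers to between 14.5 and 27.7 CPM, with Cd3e and Cd8a at 0 in KOKI replicate 1. The part of these cell states in the glycolytic levels was not tested, and fewer cells of a type and less RNA per cell cannot be told apart in such libraries.

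With SAHA, 1 of the 34 genes fell in WT cultures and 0 rose, where 4.64% of all tested genes passed, 3.69% as lower and 0.952% as higher. That gene was Pgam1, with 106 and 124 CPM in WT LPS and 63.0 and 74.2 CPM with SAHA (log2 -0.72 ± 0.16, adjusted p = 0.0431). It gave an adjusted p between 0.0615 and 0.175 when any 1 of the 6 splenic libraries was left out. The 34 genes had a median log2 fold change of -0.26, against 0.02 over all tested genes. Both SAHA libraries lay below both WT LPS libraries for 19 of the 34 genes, against 30.3% of all genes, and above both for 6, against 26%.

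The WT cultures carry numbers that the labels share between treatments, and a fit of the 4 WT libraries with that number as a block passed 15 of the 34 genes. In this fit 22.8% of 14961 tested genes passed, 14.5% as lower and 8.29% as higher with SAHA, on 1 residual degree of freedom. The genes lower with SAHA were 12. Tpi1 went from 224 and 240 CPM to 129 and 127 CPM, a log2 change of -0.82 ± 0.23 without the block (adjusted p = 0.076) and an adjusted p of 0.000694 with it. Tkt went from 303 and 338 CPM to 176 and 210 CPM (adjusted p = 0.0664 without and 0.00211 with the block), and Pgk1 from 537 and 472 CPM to 289 and 300 CPM (0.104 and 0.0026). The other lower genes were Hk2, Gpi1, Pfkl, Gapdh, Eno1, Pkm, Pdha1 and Pgd, with Pgam1, at block adjusted p between 0.000914 and 0.0408.

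Against this direction, 3 genes were higher with SAHA in the blocked fit. Aldoc had 3.87 and 6.18 CPM in WT LPS and 9.63 and 11.9 CPM with SAHA (adjusted p = 0.126 without and 0.00297 with the block). Eno2 had 1.15 and 1.93 CPM against 4.24 and 3.40 CPM (0.185 and 0.0306). Slc2a6 had 19.3 and 25.1 CPM against 27.1 and 31.5 CPM (0.18 and 0.0441). Each had SAHA libraries above both WT LPS libraries. Bnip3, Pdk1 and Slc2a1, the 3 genes that passed in KOKI under every alternative run, had log2 changes of -0.01, 0.06 and -0.08 with SAHA and did not pass in either fit.

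All 6 pentose phosphate enzymes had negative log2 changes with SAHA (median -0.29) and none passed without the block, while Pgd and Tkt passed with it. Of the other lists, Prps1, which makes the nucleotide precursor PRPP from ribose phosphate, fell by 0.83 on the log2 scale (adjusted p = 0.0238), the pyruvate dehydrogenase components Dlat and Pdhx fell by 0.64 and 0.60 (adjusted p = 0.0433 and 0.0467), and Ero1l fell by 0.74 (adjusted p = 0.0277). Txnip, which restrains glucose uptake, rose by 0.70 (adjusted p = 0.0404), and the lactate carrier Slc16a1 fell by 1.03 (adjusted p = 0.0198). No other glycolysis gene of 10 passed, where 4.64% of all tested genes did. Markers of dividing cells summed to 1105 to 1204 CPM with SAHA against 2347 to 2443 CPM without, and 8 of 8 fell; plasmablast markers summed to 366 to 369 CPM against 543 to 554 CPM. Macrophage and monocyte markers summed to 47.6 to 48.7 CPM with SAHA and 27.0 to 27.7 CPM without. The part of these changes in the glycolytic levels was not tested.

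**Figure D3:**
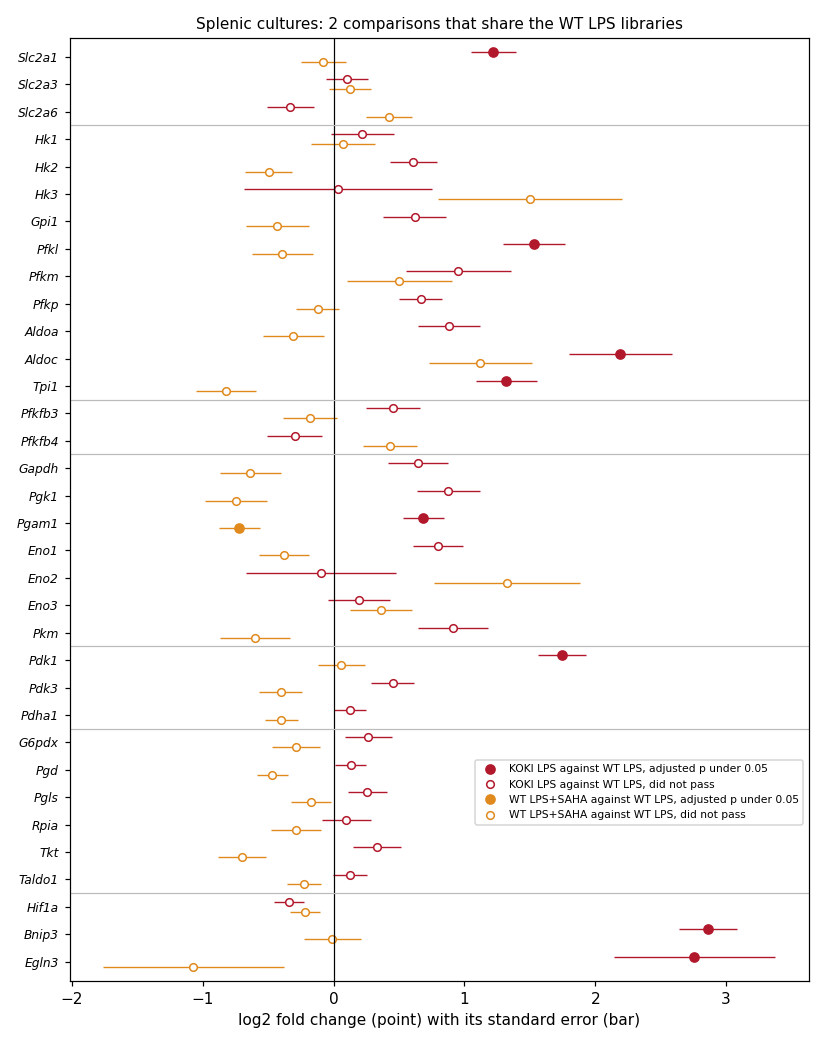
Log2 fold change with its standard error for each of the 34 genes, grouped by role, in KOKI against WT LPS (red) and in WT LPS+SAHA against WT LPS (orange), which share the WT LPS libraries. Filled points passed at adjusted p under 0.05. The KOKI points lie right of 0 for 30 of the 34 genes and the SAHA points left of 0 for 24.

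Against WT cultures with SAHA, the comparison that the treatment label of the KOKI cultures would call for, 19 of the 34 genes were higher in KOKI and 2 lower. Of all tested genes 23.7% passed, 14.1% as higher and 9.64% as lower. The median log2 fold change was 0.82 over the 34 genes and -0.03 over all tested genes. Egln3, Bnip3 and Tpi1 had the highest values (log2 3.83 ± 0.68, 2.87 ± 0.22 and 2.14 ± 0.24). By role, 6 of 10 upper and 5 of 7 lower glycolysis genes rose, with all 3 pyruvate dehydrogenase genes, 1 of 3 carriers and both Bnip3 and Egln3.

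In this comparison the pentose phosphate enzymes Pgd and Tkt also rose (log2 0.60 ± 0.12, adjusted p = 0.0102, and 1.04 ± 0.18, adjusted p = 0.00715), and the other 4 did not pass. The 2 genes that fell were Slc2a6, with 27.1 and 31.5 CPM in SAHA and 17.5 and 17.4 CPM in KOKI (log2 -0.76 ± 0.18, adjusted p = 0.0207), and Pfkfb4, with 13.4 and 12.5 CPM against 8.13 and 7.54 CPM (log2 -0.73 ± 0.21, adjusted p = 0.0398). Without KOKI replicate 2, 14 genes were higher and 0 lower, and 9.60% of all tested genes passed. Gpi1, Pfkp, Aldoa, Pdha1, Pgd, Slc2a6 and Pfkfb4 then gave adjusted p between 0.0537 and 0.17. Of the other lists in the full fit, 9 of 21 hypoxia genes rose, and 2 of 10 glycolysis genes rose and 1 fell. Of the pentose phosphate genes 3 of 9 rose, and of the genes of pyruvate entry 4 of 11 rose and 1 fell. Of all tested genes 14.1% were higher and 9.64% lower. All 8 markers of dividing cells and all 5 plasmablast markers were higher in KOKI here, and their part in these counts was not tested.

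The femoral pools and the splenic cultures differed in which forms of the same enzymes and carriers they held. Of the 34 genes 8 were higher and 12 lower in WT LPS cultures than in the femoral control pools, where 42.4% of 20204 tested genes passed, 21.1% as higher and 21.3% as lower. The median log2 difference was 0.04 over the 34 genes. Tissue, culture, genotype and cell content all differ between these groups and cannot be told apart. Neutrophil markers summed to at least 12057 CPM and erythroid markers to at least 8813 CPM in the femoral pools, against at most 4.07 and 14.8 CPM in the splenic cultures.

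Hk3, a hexokinase typical of myeloid cells, had 138 and 119 CPM in the femoral controls and 0.511 and 0.446 CPM in WT LPS cultures, where 12 counts were found in each library (log2 -8.06 ± 0.29, adjusted p = 6.34e-09). It took 53.8% to 55.0% of the summed hexokinase CPM per kb in the femoral controls and 0.803% to 1.07% in WT LPS, where Hk2 took 71.5% to 71.9%. Hk1 was lower in the cultures by 1.86 on the log2 scale and Hk2 by 0.61. Pfkm, the muscle-type phosphofructokinase subunit, had 22.7 and 22.9 CPM in the femoral controls and 2.47 and 5.13 CPM in WT LPS (log2 -2.58 ± 0.34, adjusted p = 8.49e-05). Its share of the 3 subunits was 3.79% to 6.70% in WT LPS. Pfkp took 51.1% to 53.6% there and 34.5% to 36.6% in the femoral controls.

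Among the carriers, Slc2a3 had 69.4 and 64.8 CPM in the femoral controls and 22.4 and 25.4 CPM in WT LPS (log2 -1.49 ± 0.17, adjusted p = 3.33e-05), while Slc2a1 had 7.47 and 9.93 CPM against 18.5 and 21.0 CPM (log2 1.18 ± 0.22, adjusted p = 0.00102). Slc2a6 did not pass. Pfkfb4 was lower in the cultures (log2 -1.88 ± 0.20, adjusted p = 1.78e-05), and Pfkfb3 did not pass, so that Pfkfb3 took 40.5% to 43.1% of the pair in the femoral controls and 66.2% to 68.3% in WT LPS.

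**Figure D4:**
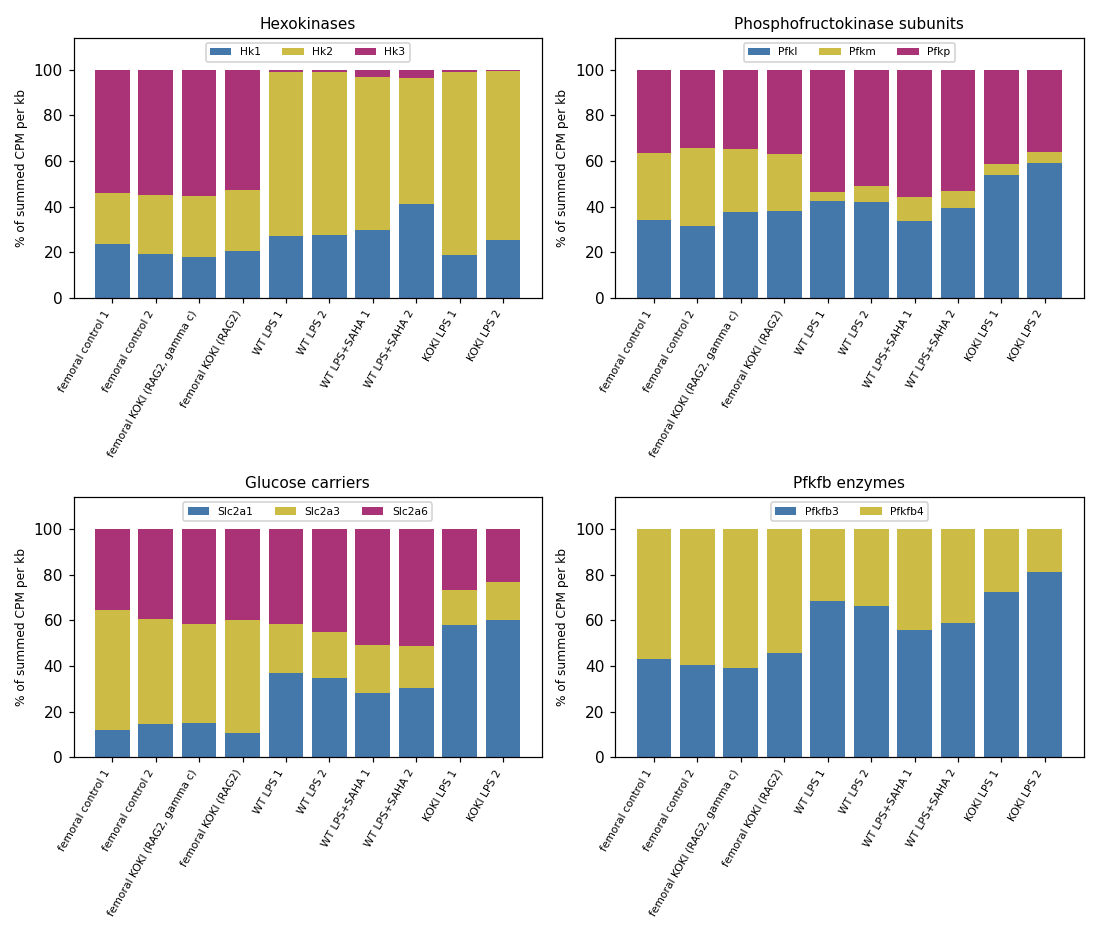
Share of each paralog in the summed CPM per kb of its family (vertical axis, percent) in each of the 10 libraries, for hexokinases, phosphofructokinase subunits, glucose carriers and the Pfkfb pair. Hk3 makes up over 50% in the femoral pools and under 4% in the splenic cultures, and the shares of Slc2a1 and Pfkl are highest in the KOKI cultures.

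The pentose phosphate pathway split by step. G6pdx had 220 and 142 CPM in the femoral controls and 39.3 and 43.8 CPM in WT LPS (log2 -2.12 ± 0.24, adjusted p = 2.37e-05), and Pgd, the second NADPH-yielding enzyme, had 184 and 133 CPM against 63.2 and 62.7 CPM (log2 -1.33 ± 0.19, adjusted p = 0.000136). Tkt and Taldo1 of the non-oxidative branch were also lower (log2 -0.71 and -0.65). Rpia, which makes ribose 5-phosphate, was higher in the cultures, with 118 and 99.9 CPM against 67.9 and 63.1 CPM (log2 0.74 ± 0.21, adjusted p = 0.0125). Pgls, the lactonase between G6pdx and Pgd, was also higher (log2 0.67 ± 0.17, adjusted p = 0.00798). It shares 20.6% of its exon bases with Fam129c on the same strand, a gene with 59 to 2162 counts. How shared reads were counted is not given, so the value of Pgls is uncertain. Of 9 other pentose phosphate genes 4 were higher and 2 lower, against 21.1% and 21.3% of all tested genes. The 4 were members of the PRPP synthetase family (Prps1, Prps2, Prps1l3 and Prpsap2, log2 0.90 to 1.46).

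In lower glycolysis 3 of 7 genes were higher in WT LPS cultures and 0 lower: Pgk1 (log2 1.36 ± 0.25, adjusted p = 0.00103), Pgam1 (0.57 ± 0.18, 0.0215) and Eno2 (2.12 ± 0.71, 0.0303), the last from 12 counts in each femoral control. Tpi1 and Pfkp of the upper steps were higher (log2 0.95 and 0.52), and Gpi1 was lower (-0.73). Aldoa, Aldoc, Gapdh, Eno1, Eno3 and Pkm did not pass. Egln3 was lower in the cultures (log2 -2.82 ± 0.56, adjusted p = 0.00162), and Bnip3 had 9.01 and 11.3 CPM in the femoral controls, close to its level in WT LPS.

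The femoral control pools differed from each other, with 857 and 523 CPM of Gapdh, 647 and 401 CPM of Tkt, and 336 and 179 CPM of Aldoa. Without control pool 1, Hk2, Gpi1, Eno2 and Tkt gave adjusted p of 0.0561, 0.246, 0.107 and 0.303, and Tkt moved to log2 -0.32. Without control pool 2, Tpi1, Pgam1, Pfkp, Eno2 and Rpia gave 0.055, 0.145, 0.308, 0.121 and 0.0938. With either WT LPS replicate left out, which leaves 1 library in that group, Gpi1, Pfkp, Pgam1, Eno2 and Tkt did not pass. A smaller share of all tested genes passed in these fits as well. The median log2 difference over the 34 genes was 0.058 without WT LPS replicate 1 and -0.046 without replicate 2. Hk2 and Rpia were also lost without WT LPS replicate 1, and Taldo1 and Pgls without WT LPS replicate 2.

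For the 34 genes no difference between KOKI and control pools was detected in the femur. In simulated data this comparison recovered 43.3% of changes of 1 on the log2 scale and 96.1% of changes of 2. The simulation planted 97 and 103 such changes, only in genes above a minimum level that Aldoc and Eno2 did not reach here. The femoral pools themselves gave 5 calls among 16624 genes, so the recovered shares may overstate what could be detected. Both KOKI pools were taken as 1 group, although only 1 shares the gamma C deficiency of the controls. Gamma C is thus mixed into the difference and its spread. None of the 34 genes passed (0 of 34), where 0.0301% of 16624 tested genes passed as higher and 0 as lower. DESeq2 also called 0 of the 34, against 3.82% of all genes. In edgeR 5 of the 34 had an unadjusted p under 0.05, as did 2687 of all 16624 tested genes. The log2 fold changes of the 34 genes had a median of -0.04, against -0.02 over all tested genes. Both KOKI pools lay above both controls for 9 genes, against 24.8% of all genes, and below both for 5, against 24.5%. The level of Bnip3 was 9.01 and 11.3 CPM in control pools, against 11.7 CPM in KOKI cells on the same background and 10.7 CPM in those deficient in RAG2 alone (log2 0.15 ± 0.24). Pdk1 had 36.6 and 34.7 CPM in control pools against 36.1 and 41.6 CPM in KOKI pools, and Slc2a1 had 7.47 and 9.93 CPM against 10.1 and 7.29 CPM. Without control pool 1, 4 genes passed as higher, and without control pool 2, 3 passed as higher and 6 as lower, in fits of the 3 remaining pools that tested 33 of the 34 genes. These were 12.1% and 27.3% of the genes tested, against 12.2% and 19.9% of all genes in the same fits.

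The difference between the KOKI effects in the 2 sources was tested in a fit of all 10 libraries. For 2 of the 34 genes the KOKI difference was higher in the splenic cultures than in the femoral pools, where 0.416% of 20204 tested genes passed in that direction. These were Bnip3 (log2 2.70 ± 0.33, adjusted p = 0.00331) and Pdk1 (log2 1.60 ± 0.26, adjusted p = 0.0204). Slc2a1, Aldoc, Pfkl and Egln3 gave log2 differences of 1.22, 2.74, 1.19 and 2.79 and did not pass (adjusted p = 0.1, 0.0951, 0.134 and 0.121). None passed in the other direction (0 of 34, against 0.431% of all genes). Of 23 other hypoxia genes 5 passed as higher (Vegfa, Ankrd37, P4ha1, Bnip3l and Ero1l). Without KOKI replicate 2, Bnip3 passed (adjusted p = 0.0253) and Pdk1 gave log2 1.37 and an adjusted p of 0.104.

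**Figure D5:**
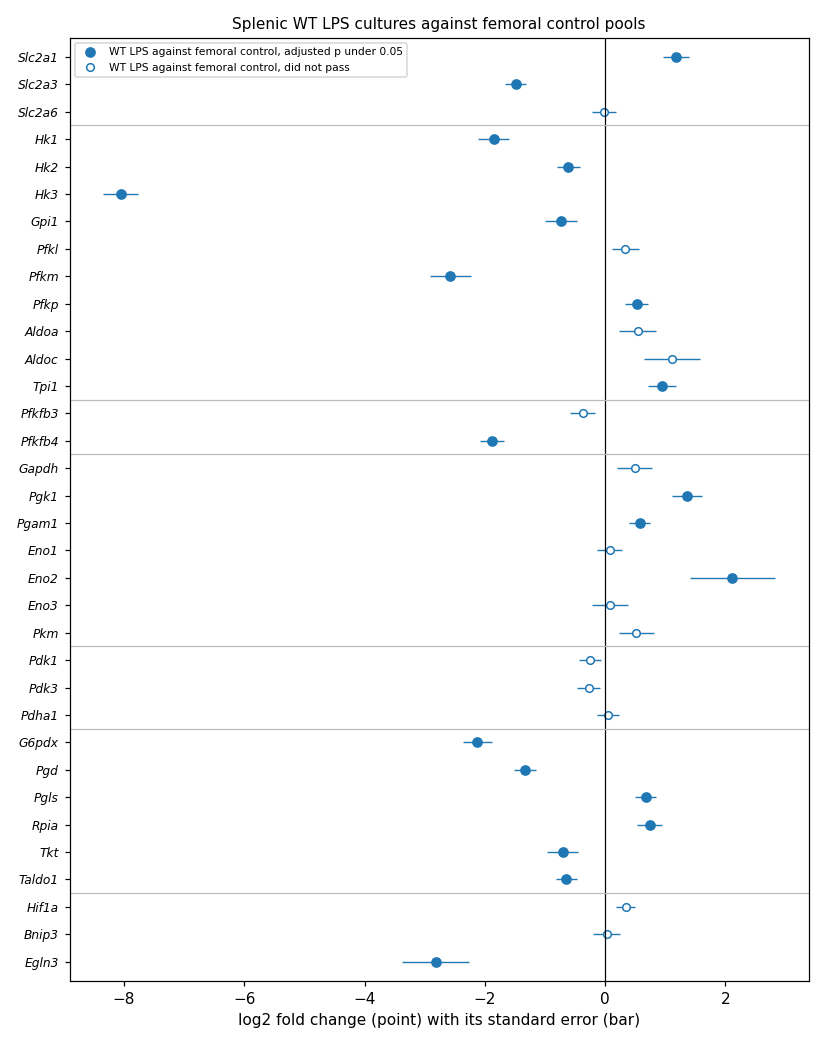
Log2 difference with its standard error for each of the 34 genes between WT LPS cultures and femoral control pools, grouped by role. Filled points passed at adjusted p under 0.05, 8 to the right and 12 to the left of 0. The lowest point is Hk3 at -8.06.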

How the data were processed

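The authors deposited 1 table of raw counts per gene, not normalised. Per the labels' protocols, libraries were made with the TruSeq Stranded Total RNA kit. STAR 2.4.0a, featureCounts and Subread 1.4.6-p1, with the build mm10 (GRCm38), are named per the submitters' processing notes. Neither the strand setting nor the handling of reads shared between near-identical copies is given in the sources used here. G6pdx, Pdha1 and Gpi1 share 13.6%, 16.1% and 11.5% of their exon bases with a gene on the other strand, and Pgls shares 20.6% with Fam129c on its own strand. Pgam1-ps2 held 149 to 843 counts and Pgk1-rs7 350 to 966, so Pgam1, Pgk1, Eno1 and Gapdh may be split.

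From the counts, CPM were computed on TMM library sizes over all 10 libraries, and fold changes came from edgeR 4.0.16 in R 4.3.3 (filterByExpr with a minimum count of 10 and total of 15, quasi-likelihood F test, adjusted p under 0.05), tested on simulated data. The 100 spike-in and phiX entries (1 to 17 counts per library) were left out. Splenic comparisons used 6 libraries in 3 groups, and the femoral one used 4, with both KOKI pools as 1 group. Those across sources used all 10 in 6 groups. DESeq2 1.42.0 was an alternative. All 34 genes passed the filter in each of these fits. Groups came from the labels. The number in the WT titles and library names was taken to name a mouse, so the WT libraries are paired from the labels; same-numbered libraries deviated together (Pearson r 0.36 over 15342 genes). The splenic KOKI libraries differ in Xist and Ddx3y and so are not from the same animal. The femoral KOKI pools differ in genotype and so are from different mice. The titles also number the femoral control pools. For the WT and femoral control groups nothing beyond these numbers says that replicates are separate animals, so p-values may measure technical spread. Replicates differed beyond counting noise (chi-square per degree of freedom 92.6 to 161). The value was 44.1 between the femoral KOKI pools, which differ in genotype. A gene is said to rise or fall only where it passed. The genes and lists were chosen with earlier results of these data known. Promoter sequences are RefSeq's.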

Additional observations from a re-analysis of the deposited data

Results flagged for a closer look

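For 2 genes the KOKI difference in the splenic cultures differed from that in the femoral pools by a test of the difference itself. Bnip3 had a log2 difference of 2.70 (adjusted p = 0.00331, edgeR) and passed in all 11 alternatives run. Pdk1 had a log2 difference of 1.60 (adjusted p = 0.0204, edgeR) and did not pass when the KOKI femoral pool deficient in RAG2 and gamma C (0.0549), WT LPS replicate 1 (0.128), WT LPS replicate 2 (0.0653) or KOKI splenic replicate 2 (0.104) was left out. The splenic libraries are LPS cultures and the femoral pools uncultured cells that lack B cell markers, so source, culture and cell content cannot be told apart here.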

How the results depend on the processing

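No gene that passed a test changed direction under any alternative run, while medians near 0 in the femoral KOKI and the source comparison did. The SAHA comparison gave 1 of the 34 genes and 712 of all genes, or 2.94% and 4.64% of those tested. DESeq2 gave 6 and 1624 (17.6% and 10.6%), and the fit without the low-count filter gave 8 and 1970 (23.5% and 5.64%). Over protein-coding genes the counts were 4 and 1346 (11.8% and 11.8%). A fit of all 10 libraries gave 0 and 211 (0% and 1.04%), and the 4 WT libraries alone gave 0 and 0. Those 4 libraries with the replicate block gave 15 and 3413 (44.1% and 22.8%). The share of the 34 genes was thus below that of all genes in some settings and above it in others. Leaving out 1 library gave 0 to 290 of all genes and 0 of the 34.

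KOKI against WT LPS gave 8 and 626, against 14 and 1088 by DESeq2 and 15 and 1254 without the filter, and leaving out 1 library gave 3 to 8 and 270 to 708, with medians of the 34 genes from 0.39 to 0.72. Slc2a1, Pdk1 and Bnip3 passed in all 12 alternatives. KOKI against WT LPS+SAHA gave 21 and 3639, and leaving out 1 library gave 14 to 21 and 1703 to 3463 (medians 0.61 to 0.96).

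The femoral KOKI comparison gave 0 of the 34 in each alternative except without control pool 1 (4 higher) or pool 2 (3 higher, 6 lower). Over all genes it gave 5, against 635 by DESeq2, 662 without the filter, 237 over protein-coding genes, 0 with RLE size factors, 0 in all 10 libraries, 0 with the matched KOKI pool only, and 13 to 3456 with 1 library left out (0 to 9 of the 34, medians -0.088 to 0.16).

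For WT LPS against femoral control, DESeq2 and RLE size factors moved the median of all genes from -0.02 to -0.17 and that of the 34 from 0.04 to -0.12; leaving out 1 library gave 13 to 20 of the 34, 6094 to 8568 of all genes and medians from -0.14 to 0.058. Pfkp and Pgam1 did not pass under either. The difference between KOKI effects gave 2 and 171, against 4 and 458 by DESeq2 (an alternative chosen after seeing the data), and 1 to 4 and 45 to 566 with 1 library left out, medians 0.41 to 0.83. The causes were not tested. Genes with few counts, such as Egln3, Eno2 and Hk3 in the splenic cultures, are limited by depth.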
